A study of Mus musculus with 12 samples.

Results

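Cadherins and desmosome genes encode the proteins that hold epithelial cells to one another. The 9 genes followed here were Cdh1, Cdh2 and Cdh3 (E-, N- and P-cadherin), the desmosomal cadherins Dsg2 and Dsc2, the plaque genes Dsp and Jup, and Perp and Sfn, out of 19369 genes in the count tables. They were read in the cells that the authors annotated as tumour cells, in the Total libraries of 6 tumours, with the other annotated classes as background. The tumours were grown from 4T1, a mouse line of triple-negative breast cancer: 5 from clones that each began as a single cell, labelled E, EM1, EM2, EM3 and M, and 1 from the parental line. All 6 grew in the mammary fat pad of female BALB/c mice, given as 9 to 11 weeks old, with 1 tumour per group. The labels describe the clones together as covering epithelial, intermediate and mesenchymal states, without giving the state of each, and they name no other treatment or allele. Each clone was read in 1 tumour, so a difference between clones and a difference between 2 tumours of any kind cannot be told apart. With 1 tumour per group no value below has a replicate and no p-value is given. Intervals are at the 95% level and cover counting error only.

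In adherens junctions, E-cadherin on neighbouring cells binds to itself outside the cell and to catenins inside. Desmosomes are the stronger spot-like junctions of epithelia: desmogleins and desmocollins bind across the gap, plakoglobin (Jup) and desmoplakin (Dsp) link them to keratin filaments. In breast epithelium, loss of E-cadherin and gain of N-cadherin is the textbook description of an epithelial-mesenchymal transition.

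Promoter windows of 300 bases, 250 before to 50 after the gene start, were taken from RefSeq (GRCm38.p6) for 3 of the 9 genes. No window was at hand for Cdh1, Cdh3 and Perp, and Cdh2, Dsg2 and Dsc2 were not searched. The 3 windows were searched for CAGGTG, the E-box bound by repressors of the Snail and Zeb families. Both strands were read, and on the other strand the motif reads CACCTG. The stretches below are 100 bases each, 5′ to 3′ on the gene's strand, with any match in capitals, and are shown because the genes they precede differed in how their levels ran over the 6 tumours.
Sfn, chr4:133602169-133602268, minus strand, ending at the base before the start: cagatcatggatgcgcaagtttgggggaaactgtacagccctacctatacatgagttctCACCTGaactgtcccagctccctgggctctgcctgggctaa
Dsp, chr13:38151203-38151302, plus strand, ending 9 bases into the gene: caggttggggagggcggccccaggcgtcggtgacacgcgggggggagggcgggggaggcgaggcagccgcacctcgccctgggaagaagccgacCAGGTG
Jup, chr11:100397791-100397890, minus strand, ending at the base before the start: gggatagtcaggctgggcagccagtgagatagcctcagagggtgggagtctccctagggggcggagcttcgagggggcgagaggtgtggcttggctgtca
Sfn held 1 match, beginning 41 bases upstream of its start, Dsp held 1, beginning at base 4 of the gene, and Jup held none in its window. The motif occurred in 6640 of all 32851 windows of this length (20.2%), so its presence in a window is common. No factor's binding was measured here.

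The tumour cells not called doublets numbered 19266, with 774 in E, 5861 in the parental tumour, 4618 for M, 3256 for EM2, 2838 for EM1 and 1919 for EM3. Their median depth was 6410 UMIs (unique molecular identifiers, the tags by which single RNA molecules are counted) in E and 9651 to 15273 in the other tumours. The summed level of 6 epithelial markers (Epcam, Krt8, Krt18, Krt19, Cldn4, Cldn7) was 11322 CPM in E and 1974 to 4378 CPM elsewhere. CPM is the UMI count of a gene per 1000000 UMIs of the same cells. The E cells also stood apart in other ways. Their median mitochondrial share was 1.79% against 0.252% to 0.549%, and 7 leukocyte markers summed to 769 CPM against 114 to 343 CPM. Markers of normal mammary epithelium (7 genes) summed to 28.8 CPM in E, 103 CPM in M, of which Csn3 made 101.96, and 2.495 to 9.12 CPM elsewhere. Skin keratinocyte markers (6 genes) summed to 25.3 CPM in E against 6.25 to 13.1, endothelial (6 genes) to 31.7 against 7.59 to 22.6, pericyte (5 genes) to 36.9 against 3.20 to 9.03 and fibroblast (7 genes) to 298 against 209 to 365 CPM. The part of these in the results was not tested, except that the 2-fold calls of the 9 genes were the same in cells without a Ptprc UMI (688 cells in E). Libraries of E and EM3 shared 1434 gel-bead barcodes between their Total libraries (16.7% of the smaller) and those of EM1 and EM2 shared 906 (13.5%), while unrelated pairs of libraries shared 0.686% to 1.92%. The labels name no capture batch. M and the parental tumour shared no more than that with any other tumour. Of the 5 comparisons with E, that with EM3 lies within 1 such group of libraries, and in the other 4 the clone and the capture cannot be told apart.

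Cdh1, which encodes E-cadherin, was high in E and low in the other 5 tumours. It stood at 746 CPM (723 to 770) in E, 52.1 (50.5 to 53.6) in the parental tumour, 25.9 (24.04 to 27.9) in EM1, 24.6 (23.2 to 26.0) in EM2, 4.22 (3.73 to 4.75) in M and 3.09 (2.48 to 3.81) in EM3. The parental tumour lay next below E at 6.98% of its level, EM1 and EM2 overlapped each other, and EM3 and M overlapped each other at the bottom. The fold from E down was 14.3 (13.7 to 15.0) to the parental tumour, 28.8 (26.5 to 31.2) to EM1, 30.4 (28.5 to 32.4) to EM2, 177 (156 to 201) to M and 241 (195 to 302) to EM3. The last of these lies within libraries that share barcodes as above.

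N-cadherin (Cdh2) was close to absent from the tumour cells of all 6 tumours. Among these cells it gave 17 UMIs in the parental tumour, 4 for EM2, 3 for M, 2 each for E and EM1 and 1 for EM3, all below 0.40 CPM, and the intervals of all neighbours in the order overlapped. Tumours further apart in the order, such as the parental tumour at 0.20 CPM (0.12 to 0.32) and M at 0.05 (0.01 to 0.14), were not compared by a fold interval. Whether Cdh2 differed between tumours was thus not settled. The gene could be read in these tables: fibroblasts of the same Total libraries held 8.80 to 34.4 CPM, with 45 UMIs in 255 fibroblasts of M and 24 in 135 of E. In GRCm38 (GENCODE), Cdh3 and Cdh1 lie side by side on the plus strand of chromosome 8, from 106510891 to 106557297 and from 106603351 to 106670246. P-cadherin (Cdh3), a cadherin of basal epithelium, also stayed low, between 0.19 CPM in EM1 and 1.98 in the parental tumour, with 1.55 in E and 1.70 in M. Cdh3 thus did not share the high level of its neighbour in E.

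**Figure D1:**
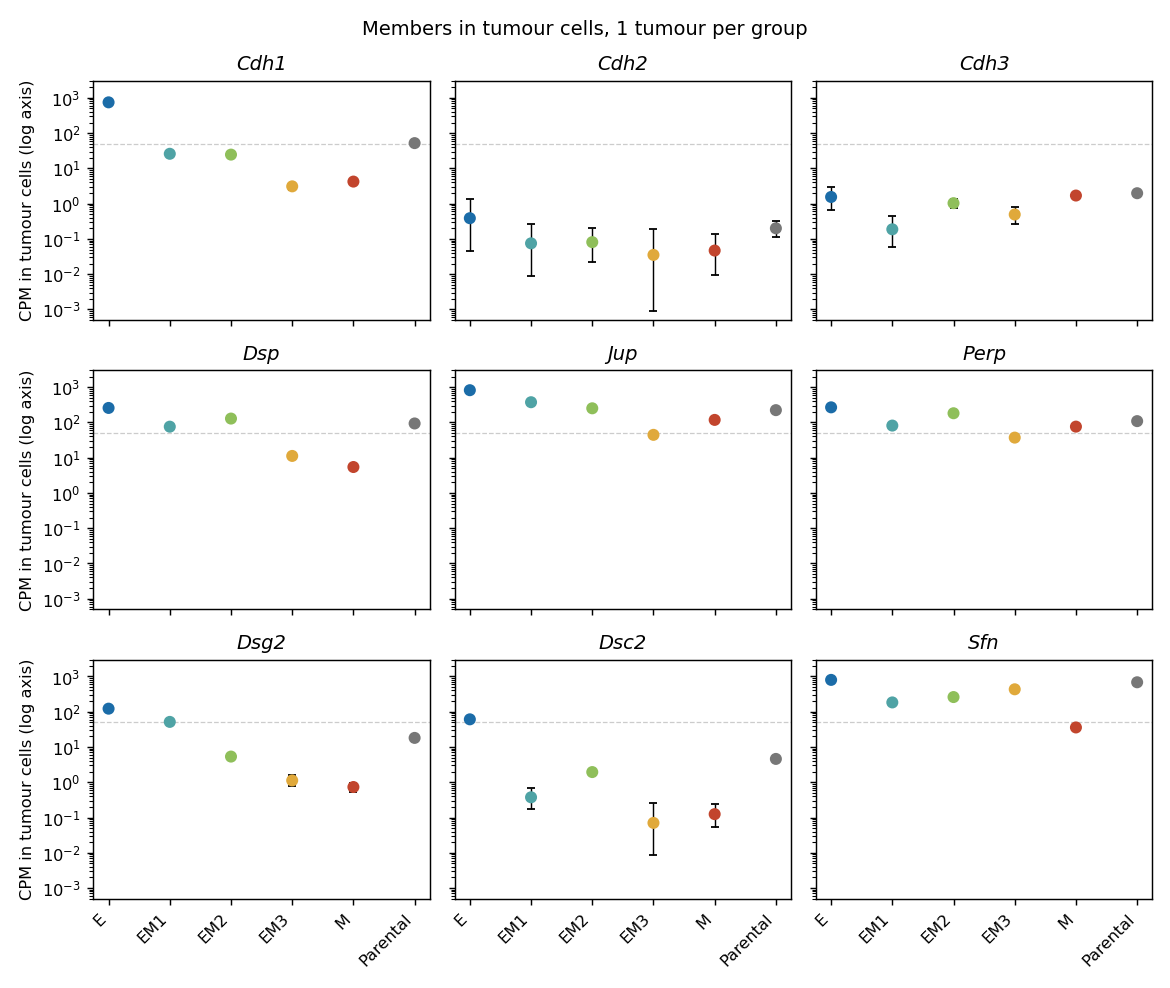
CPM of each gene in the tumour cells of the 6 tumours, 1 panel per gene on a shared log axis; points are single tumours, bars are exact Poisson intervals and the dashed line marks 50 CPM. Cdh1 and Dsc2 in E lie far above the other tumours, Sfn stays high in EM3 and the parental tumour, and Cdh2 lies below 0.40 CPM throughout.

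The desmosomal cadherins divided the clones differently. Dsg2, the desmoglein found in all desmosome-bearing tissues, stood at 122 CPM (113 to 132) in E, 51.5 (48.8 to 54.3) in EM1, 18.1 (17.2 to 19.0) in the parental tumour, 5.34 (4.72 to 6.03) in EM2, 1.12 (0.77 to 1.59) in EM3 and 0.73 (0.54 to 0.97) in M. EM3 and M overlapped and every other neighbouring pair was apart. Dsg2 therefore separated EM1 from EM2, which had like levels of Cdh1: it was 9.63-fold (8.44 to 11.0) higher in EM1. Dsc2, its desmocollin partner, behaved otherwise. It reached 60.8 CPM (54.3 to 67.9) in E, 4.59 (4.14 to 5.06) in the parental tumour and 1.94 (1.57 to 2.37) in EM2, but only 0.37 (0.18 to 0.69) in EM1, 0.12 (0.05 to 0.25) in M and 0.07 (0.01 to 0.25) in EM3, from 10, 8 and 2 UMIs. Dsc2 was 163-fold (87.2 to 342) lower in EM1 than in E, where Dsg2 was 2.37-fold (2.16 to 2.61) lower. EM1 tumour cells thus held desmoglein transcripts with almost no Dsc2 transcript.

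The plaque genes kept higher levels in EM1, EM2 and the parental tumour than in EM3 and M. Dsp, whose protein ties the plaque to keratins, stood at 257 CPM (244 to 272) in E, 129 (125 to 132) in EM2, 93.4 (91.3 to 95.5) in the parental tumour, 75.8 (72.5 to 79.1) in EM1, 11.2 (10.0 to 12.5) in EM3 and 5.44 (4.88 to 6.04) in M. All 6 levels were apart from their neighbours, with 4 tumours above 75 CPM and EM3 and M far below. Jup, shared by desmosomes and adherens junctions, stood at 820 CPM (796 to 846) in E, 374 (367 to 381) in EM1, 251 (247 to 256) in EM2, 223 (220 to 226) in the parental tumour, 118 (115 to 121) in M and 44.4 (42.0 to 46.9) in EM3. Here too no neighbours overlapped, but EM3 and M traded places: M was 2.06-fold (1.77 to 2.41) lower than EM3 for Dsp and EM3 was 2.65-fold lower than M for Jup.

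Perp, a membrane protein of desmosomes and a target of Trp53, had the narrowest range of the 7 genes that reached 50 CPM in any tumour. It stood at 268 CPM (254 to 282) in E, 182 (178 to 186) in EM2, 109 (107 to 111) in the parental tumour, 81.4 (78.0 to 84.9) in EM1, 76.0 (73.9 to 78.2) in M and 37.1 (34.9 to 39.4) in EM3, and EM1 and M overlapped. EM3 lay 7.22-fold (6.66 to 7.83) below E.

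Sfn (stratifin), an epithelial adaptor protein of the Ywha family, did not follow the junction genes. It stood at 799 CPM (775 to 824) in E, 684 (679 to 690) in the parental tumour, 432 (425 to 440) in EM3, 261 (256 to 265) in EM2, 184 (178 to 189) in EM1 and 35.8 (34.4 to 37.3) in M. EM3, lowest for Cdh1, Jup and Perp, was the third highest for Sfn, only 1.85-fold (1.78 to 1.91) below E, while M was 22.3-fold (21.2 to 23.5) below E. Between EM3 and M, Sfn differed by 12.1-fold (11.6 to 12.6) while the ratio of EM3 to M for Cdh1 was 0.733 (0.569 to 0.935). On the scale of log2((CPM + 10) ratio), the value for Sfn in M over EM3 was -3.27. Of the 5190 genes tested, 0.0193% lay at or below it, with Sfn itself counted. Genes tested reached 50 CPM in either tumour, and Sfn did so in EM3 alone, so this limit fixed its direction.

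Counted by a fixed size, log2((CPM + 10) ratio) of -1 or less, that is 2-fold lower, 7 of the 9 genes were lower than in E in both EM1 and M, 6 in both EM3 and the parental tumour, and 5 in EM2. None of the 9 was 2-fold higher. In each comparison 7 genes reached 50 CPM in either tumour, the limit for the genes compared, and Cdh2 and Cdh3 did not. These counts stand beside 5.20% of all tested genes for EM1, 8.18% for M, 6.93% for EM3, 6.64% for the parental tumour and 6.26% for EM2. The genes 2-fold higher than in E were 3.71%, 6.52%, 3.78%, 2.96% and 3.76% in the same order. The limit itself favours lower values where a gene reached 50 CPM in E alone. That held for 18 of the 35 pairs of gene and comparison, namely Dsc2 in all 5, Cdh1 and Dsg2 in 4 each, Dsp in 2 and Jup, Perp and Sfn in 1 each, so the counts are a description. The exceptions among the 7 were Dsp (-0.95) and Perp (-0.53) in EM2, Sfn (-0.87) in EM3 and Sfn (-0.22) in the parental tumour. The median log2 ratio of all tested genes was 0.11 in M over E and 0.02 to 0.06 in the others, so centring on it would make the M values lower by that much. The 5 comparisons share the E tumour.

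The comparisons made without E, namely EM2 over EM1, M over EM3 and the parental tumour over M, gave fewer calls. In that order, 5, 3 and 5 of the 9 genes reached 50 CPM, against 7 in each comparison with E, so fewer could be called. Other pairs without E were not counted. All calls in this paragraph but that of Perp are of genes that reached 50 CPM only in the tumour where they were high, so the limit fixed their direction. In EM2 over EM1, Dsg2 was lower (-2.00) and Perp higher (1.07), beside 1.84% of genes lower and 1.09% higher. In M over EM3, Sfn was lower and Jup higher (1.23), beside 2.41% and 2.22%. In the parental tumour over M, Sfn (3.92), Dsp (2.74) and Cdh1 (2.13) were higher and none of the 9 genes was lower, beside 2.10% and 2.33% of genes. Dsg2, which reached 50 CPM in neither of those tumours, had a value of 1.39.

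To compare single cells of unequal depth, each tumour cell with at least 2000 UMIs was thinned to 2000, which left out 227 cells of the parental tumour, 109 of EM1, 66 of E, 50 of M, 47 of EM2 and 35 of EM3. A Cdh1 UMI was then present in 71.9% of E cells (68.4 to 75.2), 8.70% of parental cells (7.97 to 9.46), 5.35% of EM1 (4.54 to 6.26), 4.11% of EM2 (3.45 to 4.86), 0.92% of M (0.66 to 1.24) and 0.58% of EM3 cells (0.29 to 1.04). Without thinning the shares were 86.0%, 26.2%, 12.1%, 18.8%, 3.38% and 3.70%, in which the deeper EM2 cells passed EM1. Macrophages were set beside the tumour cells as another class, and whether they make these transcripts themselves was not tested. At 2000 UMIs macrophages held a Cdh1 UMI in 9.99% of cells in E, 4.80% in the parental tumour, 1.61% in EM1, 2.00% in EM2, 1.12% in M and 2.65% in EM3. Median depths before thinning were 5982 to 10350 UMIs in macrophages and 6837 to 15408 in tumour cells. Tumour cells of M overlapped the macrophages of their library, those of EM3 lay below theirs and those of the other 4 tumours lay above. In the CD45 library of E, macrophages held 39.0 CPM of Cdh1 and 40.2 of Jup but 0.06 of Dsp, where the tumour cells held 746, 820 and 257. Fibroblasts, another class of the Total libraries, held 0.31 CPM (0.01 to 1.71) of Cdh1 in M, below the tumour cells there, and 1.40 (0.04 to 7.81) in EM3, each from 1 UMI. How much of the Cdh1 in EM3 and M tumour cells is free RNA was not tested.

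**Figure D2:**
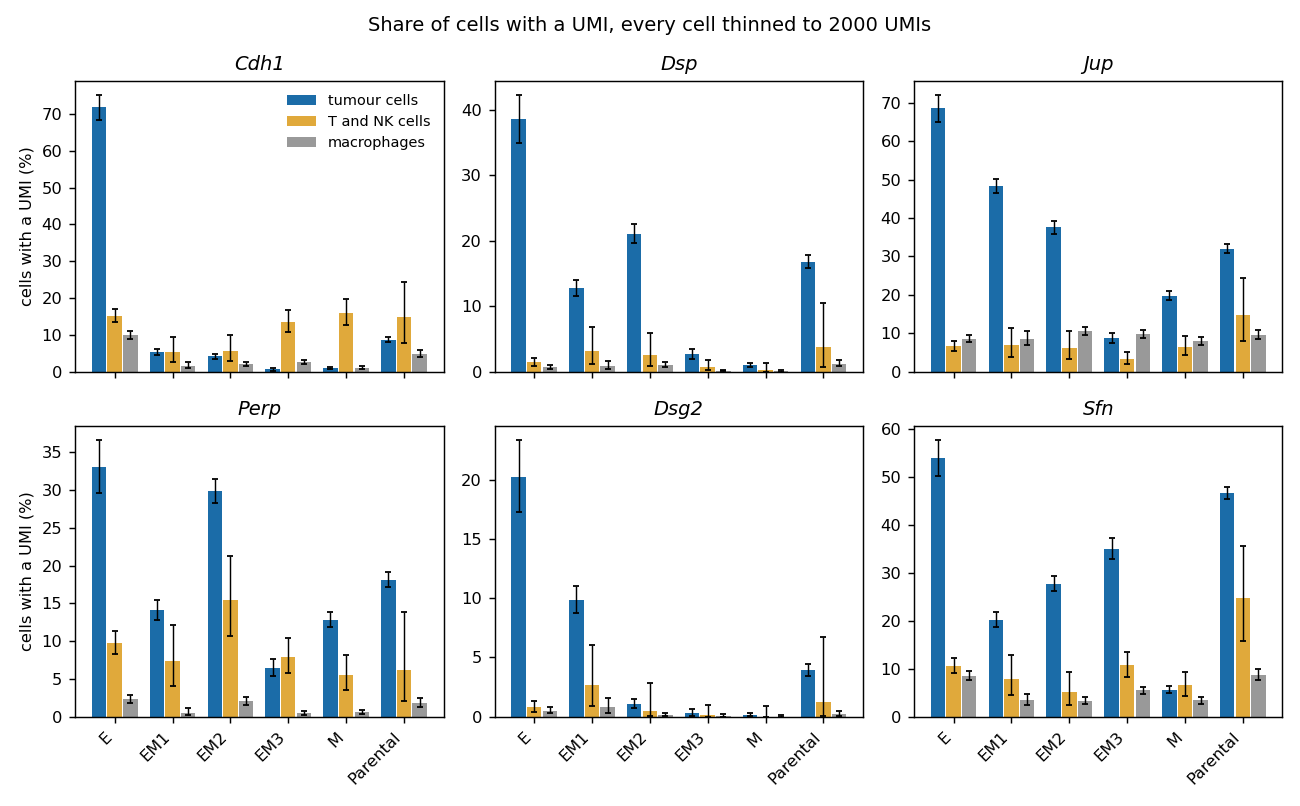
Percent of cells with at least 1 UMI of a gene after thinning each cell to 2000 UMIs, for tumour cells, T and NK cells and macrophages of the 6 Total libraries; bars start at 0 and carry exact Clopper-Pearson intervals. For Cdh1, T and NK cells exceed tumour cells in EM3 and M, and for Jup the tumour cells of EM3 (8.65%) do not exceed the macrophages (9.77%).

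Each gene was then compared in the same way, by whether the interval in tumour cells lay above that in macrophages. It did for 7 of the 9 genes in E and in the parental tumour, for 6 in EM1 and in EM2, for 4 in M and for 3 in EM3. The share of all genes that did so was not counted, and cell numbers differed between libraries, so these counts are a description. In EM3 the genes above macrophages were Dsp (2.65% of cells against 0.11%), Perp (6.42% against 0.48%) and Sfn (34.9% against 5.47%). In M they were Dsp (1.05% against 0.07%), Jup (19.8% against 7.87%), Perp (12.8% against 0.56%) and Sfn (5.63% against 3.37%). Other classes were not all lower. Sfn in M was not above the granulocytes (5.83%) or the T and NK cells (6.52%) of that library, nor Perp in EM3 above the T and NK cells there (7.84%, 5.76 to 10.4). Dsp in M overlapped the granulocytes (0.34%, 0.04 to 1.23), T and NK cells (0.24%, 0.01 to 1.34) and fibroblasts (0.81%, 0.10 to 2.91). Jup in EM3 was seen in 8.65% of tumour cells and 9.77% of macrophages. Dsg2 in M was seen in 8 of 4568 tumour cells and in 0 of 2669 macrophages, which allows up to 0.112% by a limit of 3 counts. The exact upper bound, used to compare the intervals, is 0.138%.

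Most E cells carried several of these transcripts together. At 2000 UMIs, 62.4% of E cells held a UMI of 3 or more of the 9 genes, against 13.0% in the parental tumour, 10.2% in EM2, 8.79% in EM1, 0.64% in EM3 and 0.63% in M. The mean number per cell was 2.98 in E, 1.28 in the parental tumour, 1.22 in EM2, 1.11 in EM1, 0.54 in EM3 and 0.41 in M. None of the 9 was seen in 2.68% of E cells and in 64.8% of M cells. EM1, EM2 and the parental tumour were close to one another and EM3 lay near M.

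**Figure D3:**
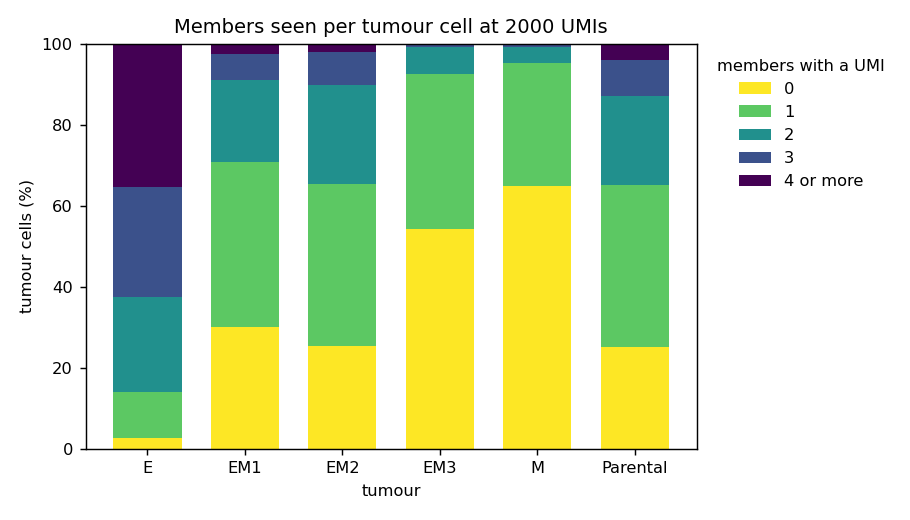
Percent of tumour cells by the number of the 9 genes with a UMI, at 2000 UMIs per cell; each bar is 1 tumour and adds to 100%. E cells mostly hold 2 to 4 of the genes, EM3 and M cells mostly none or 1.

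Whether a low level was spread over all cells or held by a few was read from the thinned counts. If every cell held the same level, counting alone would give a variance equal to the mean. The variance of Cdh1 was 1.43 times its mean in E, 1.56 in EM1, 1.63 in the parental tumour, 2.02 in M and 2.27 in EM2. In EM2, 16 of 3209 cells had 3 or more Cdh1 UMIs and held 35.1% of all Cdh1 UMIs, and in M 3 of 4568 cells held 22.4%. In EM1, 6 of 2729 cells held 12.4%. With cells thinned to 5000 UMIs instead, such cells held 34.9% in EM1, 38.8% in EM2, 39.3% in the parental tumour and 34.3% in M, so the gap between EM1 and EM2 was seen only at the lower depth. For Sfn the variance was 4.06 times the mean in E, 3.58 in EM3, 3.55 in the parental tumour, 2.78 in EM2, 2.68 in EM1 and 1.81 in M. Sfn cells with 3 or more UMIs were 18.1% of the parental cells and held 70.7% of its Sfn UMIs. The ratio ran from 1.05 in EM2 to 1.36 in E for Perp, from 1.05 to 1.46 for Dsp and from 1.12 to 1.64 for Jup. The means differ between genes and tumours, so these ratios give no order of how even they are.

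In the parental tumour, EM1, EM2 and M, cells that held Cdh1 held several other epithelial transcripts more often, at sizes that changed with the depth read. At 2000 UMIs, among parental cells, those with a Cdh1 UMI (490 of 5634) held Dsg2 in 16.5% (13.3 to 20.1) against 2.70% (2.28 to 3.18) of those without. Jup was seen in 53.9% (49.3 to 58.4) against 29.9% (28.7 to 31.2), Perp in 35.1% (30.9 to 39.5) against 16.5% (15.5 to 17.5) and Dsp in 27.6% (23.6 to 31.7) against 15.8% (14.8 to 16.8). Sfn was seen in 48.4% (43.9 to 52.9) against 46.5% (45.1 to 47.8), intervals that overlap. Among these 5 genes the step was widest for Dsg2 by ratio and for Jup in percentage points, and smallest for Sfn by both. Dsc2 (4.90%, 3.16 to 7.20, against 0.70%, 0.49 to 0.97) and Cdh3 (2.24%, 1.13 to 3.98, against 0.25%, 0.13 to 0.43) had larger ratios than Dsg2. The intervals of Cdh2 overlapped.

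In EM2 the 132 cells with Cdh1 held Dsg2 in 9.85% (5.35 to 16.3) against 0.71% (0.45 to 1.08), Sfn in 40.9% (32.4 to 49.8) against 27.1% (25.5 to 28.7), and Dsp in 22.0% (15.2 to 30.004) against 21.0% (19.6 to 22.5). The intervals of Dsp, high in EM2 as a whole, overlapped. In EM1 the 146 cells with Cdh1 held Dsp in 27.4% (20.3 to 35.4) against 11.9% (10.7 to 13.2) and Dsg2 in 21.9% (15.5 to 29.5) against 9.14% (8.05 to 10.3). In M only 42 cells held Cdh1, and Sfn was seen in 28.6% of them (15.7 to 44.6) against 5.41% (4.77 to 6.11), Dsg2 in 9.52% (2.66 to 22.6) against 0.09% (0.02 to 0.23) and Jup in 40.5% (25.6 to 56.7) against 19.6% (18.5 to 20.8). In E, where most cells held Cdh1, the shares at this depth with and without it overlapped for all of Dsp, Jup, Perp, Dsg2, Dsc2 and Sfn. EM3 had 11 cells with Cdh1, too few to compare.

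Cells thinned to 5000 UMIs changed part of this. Dsg2 stayed apart in the parental tumour (20.1% against 5.19%) and in EM1 (41.8% against 19.4%). It also did so in EM2 (8.0% against 1.34%) and in M (7.46% against 0.16%). Each of these ratios was smaller than at 2000. Intervals that had been apart overlapped for Jup and Sfn in EM2, for Dsp and Jup in M and for Cdh3 in the parental tumour. Jup in M was seen in 47.8% (35.4 to 60.3) against 38.5% (37.002 to 39.9). Cdh3 in the parental tumour was seen in 1.23% against 0.72%, by then a smaller ratio than that of Dsg2 there. Others moved apart: Sfn in the parental tumour (69.0%, 65.7 to 72.2, against 63.4%, 62.0 to 64.8), Perp in EM2 and M, and Dsc2 in EM2. Of the 774 E cells, 516 had 5000 UMIs. Among these, 476 cells held Cdh1 and 40 did not, and Sfn (77.3%, 73.3 to 81.0, against 42.5%, 27.0 to 59.1) and Jup (92.6%, 89.9 to 94.8, against 70.0%, 53.5 to 83.4) were then apart. The leukocyte gene Ptprc was seen in 10.1% (7.53 to 13.1) of the 476 and 17.5% (7.34 to 32.8) of the 40, and its part was not tested. The Pearson r of Cdh1 with Sfn across E cells was 0.198 at 2000 UMIs and 0.274 at 5000. Dsg2 in the parental tumour, EM1, EM2 and M therefore kept its direction at both depths. The overlap seen in E did not hold for Sfn and Jup in the E cells with 5000 UMIs.

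Genes outside the set, chosen after values of these data were seen, were read in the same way. Epcam, an epithelial adhesion molecule, was seen in 89.2% (86.2 to 91.8) of E cells with Cdh1 against 78.9% (72.6 to 84.3) without. The gap was wider in other tumours: it was seen in 68.4% (64.0 to 72.5) of parental cells with Cdh1 against 25.6% (24.4 to 26.8) without, in 45.2% (29.8 to 61.3) against 7.998% (7.22 to 8.83) in M and in 54.1% (45.7 to 62.4) against 17.8% (16.3 to 19.3) in EM1. Krt19, a simple-epithelial keratin, was seen in 26.2% (13.9 to 42.0) against 0.68% (0.47 to 0.97) in M and 26.5% (19.2 to 34.9) against 8.68% (7.71 to 9.73) in EM2. At 5000 UMIs each of these ratios was smaller. Krt19 was then seen in 11.9% (5.30 to 22.2) against 1.51% (1.17 to 1.92) in M and in 23.3% (18.4 to 28.7) against 16.2% (14.9 to 17.7) in EM2. Epcam was seen in 46.3% (34.0 to 58.9) against 15.7% (14.7 to 16.9) in M, and its intervals in E overlapped. In EM1 (71.6% against 32.2%) and the parental tumour (83.7% against 39.0%) the Epcam gap did not narrow in percentage points. Vim, the mesenchymal filament vimentin, remained in 98.8% of parental cells and 92.9% of M cells with Cdh1, at a mean of 20.1 and 20.2 UMIs per cell, against 25.6 and 26.4 in the cells without. At 5000 UMIs the means were 53.4 against 66.6 in the parental tumour but 66.6 against 66.5 in M. The lower Vim of M cells with Cdh1 was thus seen only at 2000. Krt5, a basal keratin of normal mammary gland, was seen in 1 of the 42 M cells, 1 of the 132 EM2 cells and 6 of the 490 parental cells with Cdh1. Among cells without Cdh1 it was seen in 0 of 4526 in M, 0 of 3077 in EM2 and 0.019% of 5144 in the parental tumour. In E the shares were 0.39% with and 0.50% without. At 5000 UMIs it was seen in 0 of the 67 M cells with Cdh1 and 0.023% of those without. Ptprc, the leukocyte antigen, was seen in none of the 42 M cells, which allows up to 7.14%, in 2.99% of the 67 such cells at 5000 UMIs against 2.40% without, and, at 2000, in 0.41% of the parental cells with Cdh1 against 0.78% without. Whether the few cells with Cdh1 in EM1, EM2 and M descend from the implanted clone was not tested.

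**Figure D4:**
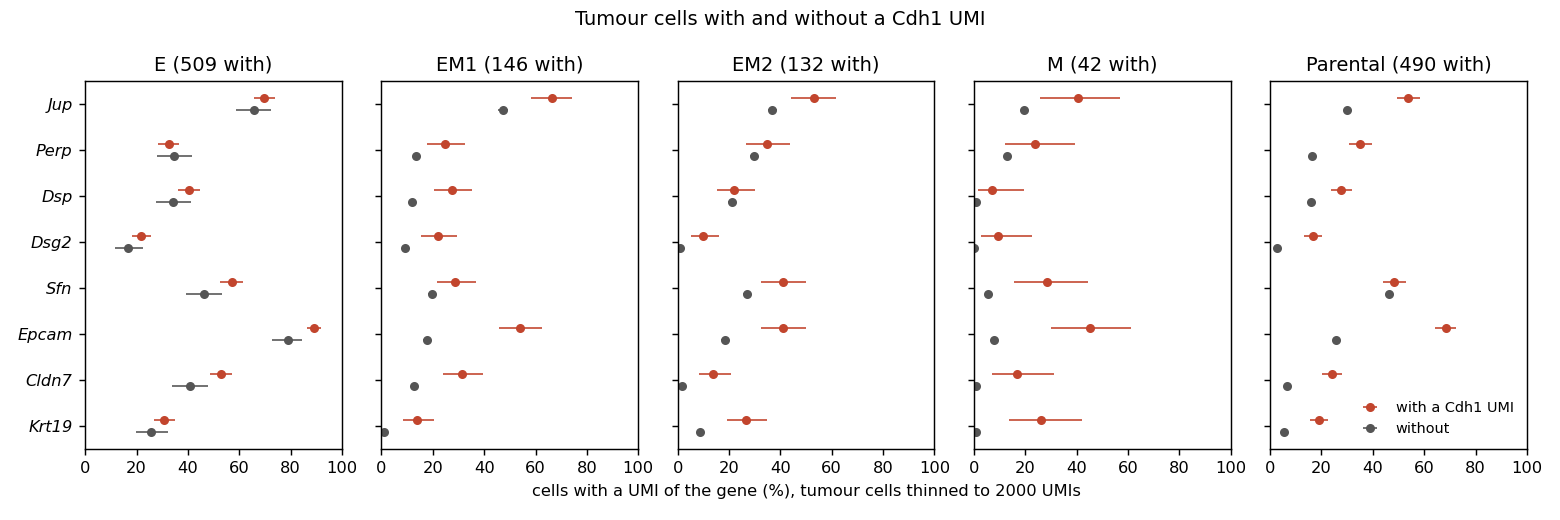
Percent of tumour cells with a UMI of 8 genes, split by whether the cell holds a Cdh1 UMI, in the 5 tumours with more than 11 such cells, all thinned to 2000 UMIs; bars are exact Clopper-Pearson intervals and titles give the number of cells with Cdh1. The intervals of the first 5 genes overlap in E, and Epcam and Dsg2 are apart in the other 4 tumours.

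Ranked over all genes with at least 50 CPM in the tumour, the 5 genes whose log2(1 + UMI) went most with Cdh1 across the 5634 parental cells were Epcam (Pearson r = 0.363), Krt19 (0.284), Cldn4 (0.279), Cldn7 (0.254) and Jup (0.208). Dsg2, under that limit in the parental tumour, had an r of 0.237. Vim was the lowest of the 4690 genes compared (r = -0.20). Across the 708 cells of E the first 4 were Emp1 (0.207), Plet1 (0.206), Plec (0.205) and Sfn (0.198), with Fos lowest (-0.20). Cells share a library and a depth, these sparse counts keep every r low, and the values are a description.

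Across the 6 tumours, the genes nearest to Cdh1 in log2(CPM + 10), by Pearson r over 5828 genes, were Cdkn2aip, Elf3, Krt14, Eif2ak3 and Fam193b, with r of 0.991 to 0.996. Krt14, a basal keratin, stood at 501 CPM in E, 40.5 in the parental tumour, 26.7 in EM1, 11.8 in EM2, 1.81 in M and 0.60 in EM3. For Dsg2 they were Cldn3, Sqstm1, F11r, Cldn7 and Tm4sf1, of which Cldn3, Cldn7 and F11r encode tight-junction proteins. Cldn3 stood at 81.7 CPM in EM1 and 7.14 in EM2, a step that follows from its choice by likeness to Dsg2 over these tumours. For Dsc2 the first 4 were Myh14, Muc4, Tbc1d12 and Fxyd3. The nearest 5 were for Dsp Wdyhv1, Ephb4, Elovl7, Gatad2a and Fbxl5, for Jup Hip1, Uaca, Zfp871, Trmt1 and Cotl1, and for Perp Sun1, Rfwd3, Micall2, Klc2 and Patl1. For Sfn they were Sin3b, Tomm20, Tns4, Stag2 and Ube2a. Among the 9 genes, Cdh1 was nearest to Dsc2 (r = 0.963) and farthest from Sfn (0.624) of those at 50 CPM. These are 6 points in which E stands apart, so many genes that are high in E reach a high r.

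The partners of E-cadherin at the adherens junction were read from a list of 9 genes, of which 8 reached 50 CPM in each comparison with E. The only one of the 8 that was 2-fold lower in any of them was Nectin1, in M, where 8.18% of all genes were, and 0 of 8 in the others stand beside 5.20% to 6.93%, so these counts lie near those of all genes. The ninth, Nectin4, named after its values were seen, stood at 31.3 CPM in E and 1.90 to 4.19 elsewhere, below the limit throughout. The median log2 ratio of the 8 ran from -0.37 in EM2 to -0.01 in the parental tumour. Nectin1, a nectin of the same junction, stood at 127 CPM in E and 47.8 in M, and Vcl (vinculin) at 424 in E and 225 in EM3. Afdn (afadin) stood at 247 in E and 144 in EM3, and Nectin3 at 89.4 and 151. Ctnna1, Ctnnb1 and Ctnnd1 (alpha-, beta- and delta-catenin), named after their values were seen, stood at 462, 527 and 211 CPM in E and 413, 467 and 253 CPM in EM3. Their levels thus lay within 2-fold of each other in tumours with 746 and 3.09 CPM of Cdh1. Of 13 other desmosome genes, Pkp3 and Ppl reached 50 CPM in all 5 comparisons, and Pkp4 did so in EM2, EM3 and M through its own level there. The median log2 ratios were -0.85 in EM1 and -0.77 in the parental tumour over 2 genes, and -0.35 in EM2, -0.66 in EM3 and -1.01 in M over 3. Pkp3, a plakophilin of the plaque, was 2-fold lower in EM1, EM2, EM3 and M, at 217 CPM in E, 120 in the parental tumour, 94.6 in EM2, 78.8 in EM1, 73.6 in M and 59.9 in EM3. Ppl (periplakin) was 2-fold lower in M alone (87.8 CPM against 187 in E). Pkp4 stood at 43.8 CPM in E, 55.4 in EM2, 54.5 in EM3 and 56.1 in M. The skin-type desmogleins Dsg1a, Dsg1b, Dsg1c, Dsg3 and Dsg4 stood at 0.58 CPM or less in every tumour.

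None of the 9 other cadherins measured reached 50 CPM in any tumour, so none stood in for Cdh1 at its level in E. Cdh10 was the one with most UMIs: 333 in EM2 (6.74 CPM), 41 in E (7.92 CPM), 48 in the parental tumour, 3 in EM3, 1 in M and 0 in EM1, which allows up to 0.11 CPM. It was named after its values were seen. Among the relatives of Perp, the tetraspan genes Pmp22 and Emp3 were at least 2-fold higher than in E in all 5 other tumours, beside 2.96% to 6.52% of all genes. Pmp22 stood at 10.2 CPM in E and 67.9 to 162 elsewhere, so it passed the 50 CPM limit only where it was high, and Emp3 at 56.4 in E and 318 to 573 elsewhere. Emp1 was 2-fold lower in EM2 and M (1376 and 1215 CPM against 2885 in E). Trp53, a regulator of Perp, stood at 115 CPM in E and 68.2 to 95.1 elsewhere. Of the 6 other Ywha genes, relatives of Sfn, none was 2-fold lower in any comparison with E, beside 5.20% to 8.18% of all genes, with medians of 0.36 to 0.53 beside 0.02 to 0.11 for all genes, and Ywhab was higher in EM1, EM3 and M (388, 364 and 476 CPM against 176 in E). Ywhah stood at 234 CPM in E, 434 in EM3 and 269 in M.

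Other classes of the same tumours also held some of these transcripts. In the Total libraries, Cdh1 stood at 31.8 to 113 CPM in T and NK cells, 30.2 to 178 in B cells and 32.1 to 104 in dendritic cells (DC), classes that number 50 cells or more. In M, T and NK cells held 113 CPM (99.0 to 128) of Cdh1 where tumour cells held 4.22 and macrophages 4.65 (3.88 to 5.53). In EM3 it was 70.1 CPM (60.3 to 81.1) in T and NK cells and 3.09 in tumour cells. In EM1, T and NK cells were also higher, at 44.7 CPM (36.1 to 54.9) against 25.9. The intervals of EM2 met, with 31.8 CPM (24.5 to 40.6) against 24.6, as did those of the parental tumour, with 48.8 (36.3 to 64.1) against 52.1. In E the order was the reverse, 88.6 CPM in T and NK cells and 746 in tumour cells.

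The CD45 libraries, enriched with magnetic beads for leukocytes, give T and NK subsets. Cells of the NK subtype held 90.0 to 221 CPM of Cdh1 in the 6 tumours and Lef1+ Cd8+ T cells 96.1 to 140 in the 5 tumours with enough cells. Gzmb+ Cd8+ T cells held 55.4 to 123. Cd44+ Cd4+ T cells held 18.9 to 60.2 and Mki67+ Cd8 or Cd4 T cells 7.07 to 40.8. Foxp3+ Cd4+ T cells held at most 19.7, Cd44- Cd4+ T cells at most 11.0 and granulocytes at most 9.77. B cells held at most 13.5 CPM there, unlike the B class of the Total libraries. Cells whose main class was NK, in the 4 tumours with 50 or more of them, held 13.0 to 107 CPM. DC ranged from 28.5 in M to 196 in the parental tumour. Macrophages held 39.0 CPM in E, 28.2 in the parental tumour, 21.7 in EM3, 12.1 in EM2, 7.66 in EM1 and 4.14 in M.

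Jup stood at 125 to 204 CPM in endothelial cells of the 4 tumours with 50 or more of them, within the range of tumour cells, and at 82.5 to 157 CPM in DC. In EM3, Jup was lower in tumour cells (44.4 CPM) than in DC (121), granulocytes (74.2) and macrophages (61.1). Perp was found in Gzmb+ Cd8+ T cells at 63.1 to 120 CPM in the CD45 libraries, where macrophages held at most 0.58 CPM, and T and NK cells of the Total libraries held 35.0 to 59.6. Dsc2 was seen in T and NK cells of the M Total library at 34.1 CPM (26.8 to 42.7), from 75 UMIs, against 0.12 in the tumour cells there. In the T cells of the CD45 library of M, 685 cells, Dsc2 had 0 UMIs, which allows up to 2.77 CPM. Dsp and Dsg2 did not pass 37.1 and 20.2 CPM in any named class other than tumour cells.

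**Figure D5:**
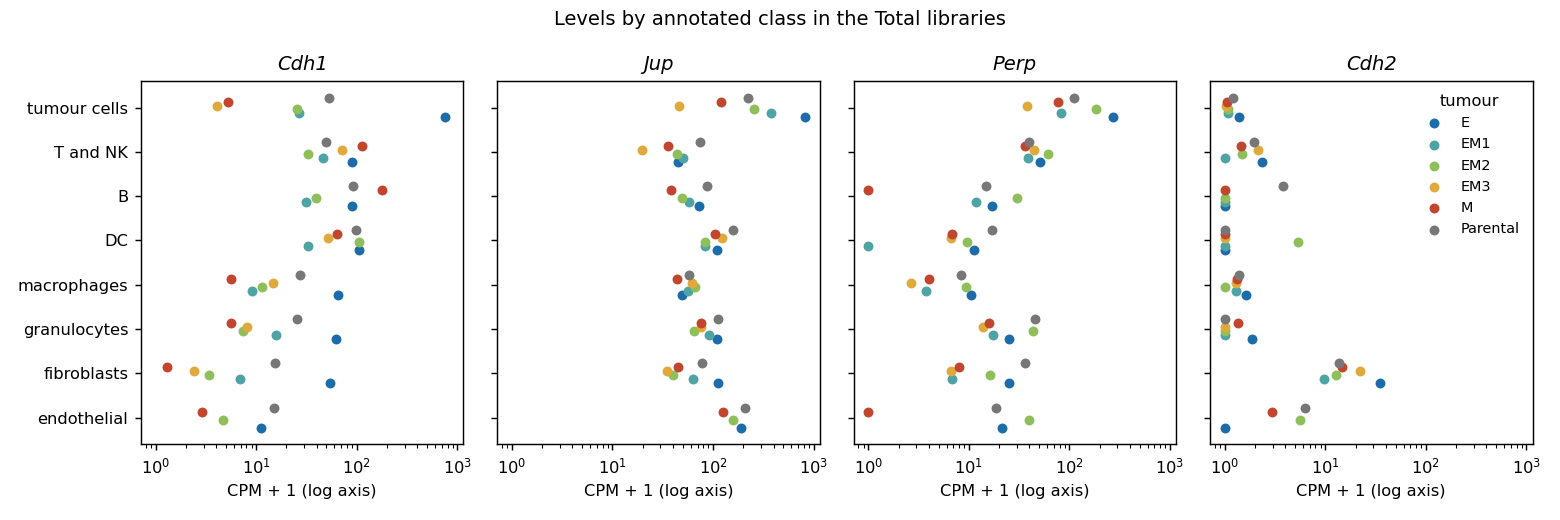
CPM + 1 (log axis) of Cdh1, Jup, Perp and Cdh2 in annotated classes of the Total libraries with 50 or more cells, each point 1 tumour by colour. Cdh1 in the tumour cells of EM3 and M lies left of their T and NK and DC values, and Cdh2 is highest in fibroblasts.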

How the data were processed

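Single-cell RNA-seq was made from 6 tumours, each with a Total and a CD45 library (12 libraries, 28083101 to 122055131 UMIs). The deposited files hold UMI counts per gene and cell, and a metadata table beside each holds the authors' cell annotation and mitochondrial percent. Per the submitters' processing notes, Cell Ranger and mm10 were used; versions are not given in the sources used here. The labels' protocols name both a fixed-RNA kit and 3′ reagents. The cell barcodes held 1 probe barcode per library, a feature of the fixed-RNA kit. The Total libraries of E and EM3, which shared 1434 gel-bead barcodes, shared 0 full barcodes. Whether near-identical or antisense genes share reads was not tested. UMI sums per cell matched the authors' values in every cell.

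Doublets were called with the Scrublet method (scikit-learn 1.9.0, 2 simulated pairs per cell, 1 limit for all libraries, the median of 12 valleys, 0.247) and left out: 3111 of 115612 cells (2.69%), 669 of them tumour cells. Counts of the remaining cells were summed per class and library and scaled to CPM, with exact Poisson intervals. Shares of cells used thinning to 2000 UMIs and exact Clopper-Pearson intervals. Ratios used a pseudocount of 10 CPM and genes of at least 50 CPM in either tumour. Calculations used Python 3.11.15, numpy 2.4.6 and scipy 1.17.1 and were tested on simulated data. Named genes were the 9 genes, up to 4 per list by the larger change of M or EM3 over E, and the 5 nearest genes by correlation (1 gene among these is not reported here), other choices being marked. The 9 genes and all lists were chosen with earlier results of these data known. Alternatives are listed in the closing section.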

Additional observations from a re-analysis of the deposited data

How the results depend on the processing

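No paired analysis was possible because each group held 1 tumour and no test was made. Among the ratios over E (9 genes, 5 comparisons), 5 crossed the 2-fold limit under an alternative setting and 0 changed sign past it. Dropping the 50 CPM limit cannot move a gene's own ratio. With the mean of per-cell CPM, Jup (-0.99) and Dsg2 (-0.97) in EM1 and Perp (-0.93) in the parental tumour no longer reached it, so those counts became 5 and 5. Dsp in EM2 reached it with median ratio scaling (-1.05, count 6), whose factors ran from 0.937 in E to 1.05 in M. Cdh3 in EM1 reached it with a pseudocount of 1 CPM (-1.10, count 8). Keeping doublets, leaving out cells with a Ptprc UMI, or requiring 650 genes or 2000 UMIs per cell changed no count. The depth limits Cdh2 in all tumours, Cdh3 in E, EM1 and EM3, and Dsc2 in EM1, EM3 and M, which rest on 17 UMIs or fewer. The share of all genes 2-fold lower than in E, 5.20% to 8.18% over the 5 comparisons, was 3.21% to 4.1% without the 50 CPM limit and 6.1% to 10.5% with median ratio scaling.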
